A study of Mus musculus with 12 samples.

Results

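The respiratory chain genes of both genomes were followed through muscle stem cells before and after injury in mice with and without Sestrin1 and Sestrin2. Members were the genes whose symbol matched a fixed pattern for the subunits of complexes I to V (Nduf, Sdh, Uqcr, Cox4 to Cox8, and Atp5 names) or the prefix mt-, which selected 97 of the 30154 genes measured. Of these, 84 were encoded in the nucleus (37 of complex I, 4 of complex II, 8 of complex III, 15 of complex IV and 20 with an Atp5 name) and 13 in the mitochondrial genome. A filter on low counts kept 91 members, 79 nuclear and 12 mitochondrial. The 6 others, never tested, were 3 Atp5 pseudogenes, Cox7b2, Cox8c and mt-Atp8, which was listed at 0 in every library and whose reading frame overlaps that of mt-Atp6. The pattern passed over some true subunits, such as Cox4i1 and Ndufab1, and took in Atp5s and Atp5sl, which are not subunits of the enzyme. Ndufa4 and its paralog Ndufa4l2 are counted with complex I by name, although NDUFA4 is held to be a subunit of complex IV.

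RNA was sequenced in bulk from flow-sorted muscle stem cells of the tibialis anterior, gastrocnemius and quadriceps of C57BL/6J mice aged 2 to 3 months. The 6 groups, of 2 libraries each, were Sestrin1,2 wild type (WT) and Sestrin1,2 knockout (KO) mice before injury (day 0), 7 days after injury and 21 days after injury. Neither the kind of injury nor sex or batch is given in the labels, and no source is named that would tell separate animals from repeated libraries, so p-values measure the spread between these libraries. Sesn2, the deleted gene with the clearer readout, was at 75.1 and 84.3 CPM (counts scaled to the library size) in day 0 WT against 5.47 and 7.03 in day 0 KO, and at 44.9 and 47.4 in day 7 WT against 2.36 and 1.92 in day 7 KO. At day 21 it stood at 8.92 and 82.1 in the libraries labelled WT and at 9.86 and 108 in those labelled KO. Sesn1 separated the genotypes less, at 70.3 and 68.6 against 46.0 and 45.8 CPM on day 0 and, on day 7, at 67.9 or above against 28.4 and 22.4. At day 21 it was at 43.7 and 78.3 in the libraries labelled WT and at 41.7 and 67.2 in those labelled KO, low and high in the same libraries as Sesn2. Replicate 1 labelled WT and replicate 2 labelled KO thus went against their labels by both genes, and every genotype statement for day 21 is by label. Averages over the genotypes at day 21 do not turn on which label a library carries, apart from their error. The spread is estimated from all 6 groups as labelled, so the day 21 libraries also enter the tests of the other days.

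Oxidative phosphorylation passes electrons from NADH (complex I) and succinate (complex II) through ubiquinone, complex III and cytochrome c to oxygen at complex IV, and the proton gradient this builds drives the ATP synthase (complex V). Complex II is wholly nuclear-encoded, whereas the other complexes combine nuclear subunits with a few core subunits made from mitochondrial DNA, which is transcribed as long polycistronic RNAs from both strands. Quiescent muscle stem cells are known for low mitochondrial activity, and differentiating muscle exchanges some ubiquitous complex IV subunits for muscle isoforms.

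Libraries held between 28396862 and 38950614 estimated counts, with scaling factors from 0.915 to 1.09. The muscle stem cell marker Pax7 was present but low, at 3.14 to 19.2 TPM (transcript abundance scaled for both length and library size), and all 8 muscle stem cell markers were detected, their sum lying between 393 and 1143 TPM. Other cell types' markers moved between groups: the summed TPM of 12 myofibre markers was 121 to 214 at day 0, 3234 to 6464 at day 7 and 461 to 906 at day 21, and that of 4 keratinocyte markers was 163 to 173 in day 0 WT against 1.44 to 1.75 in day 0 KO, where Krt5 and Krt14 were at 0. The 5 red blood cell markers summed to 3121 to 3128 in day 0 WT and to 742 to 782 in day 0 KO. The fibro-adipogenic sum was 5577 to 7980 TPM at day 0 and 11862 to 13903 at day 7, and that of smooth muscle and pericyte markers 4997 to 7653 at day 0 and 2141 to 3141 at day 7. Of 5 macrophage markers, 4 rose and Lyz2 fell at day 7 in both genotypes, while their summed TPM, most of it Lyz2, was 2031 to 3513 at day 0 and 349 to 515 at day 7. The pan-leukocyte gene Ptprc, one of the 4 that rose, was at 0 to 0.0422 TPM at day 0 and 0.241 to 3.48 at day 7. The part of these cells in the results below was not tested. In bulk RNA, fewer cells that hold a transcript cannot be told apart from less of it per cell, and a smaller share of mitochondrial RNA cannot be told apart from more of all other RNA.

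On a scale corrected for transcript length (TPM), the mitochondrial mRNAs had the highest levels. The mean TPM of the 12 tested mitochondrial genes at day 0 ran from 321 for mt-Nd4l to 8977 for mt-Co3, with a median of 2142 that only Atp5b among the nuclear members exceeded. The median member of complexes I, II, III, IV and V was at 241, 217, 627, 480.5 and 433 TPM. Atp5b, the catalytic beta subunit of the ATP synthase, had the highest nuclear level at each day, at 2461 TPM at day 0, 2831 at day 7 and 2268 at day 21. Cox8a led complex IV with 1292 TPM at day 0, and Ndufb8 led complex I with 575.

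At day 7 the mitochondrial mRNAs were down in both genotypes while the nuclear members as a group stayed near their day 0 level. The 13 mitochondrial genes took 2.39% and 2.21% of all counts in day 0 WT and 1.71% and 1.45% in day 0 KO. They took 0.958% and 0.968% in day 7 WT, and 0.558% and 0.800% in day 7 KO. Every day 7 library was below every day 0 library, and averaged over 4 libraries a day the share at day 7 was 0.423 of that at day 0. The 84 nuclear members took 1.28% in both day 0 WT libraries, 1.20% and 1.09% in day 0 KO, and 1.31% to 1.34% in all 4 day 7 libraries. Summed mitochondrial TPM over summed nuclear TPM was 1.44 and 1.32 in day 0 WT, 1.12 and 1.10 in day 0 KO, and only 0.336 to 0.579 at day 7.

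**Figure D1:**
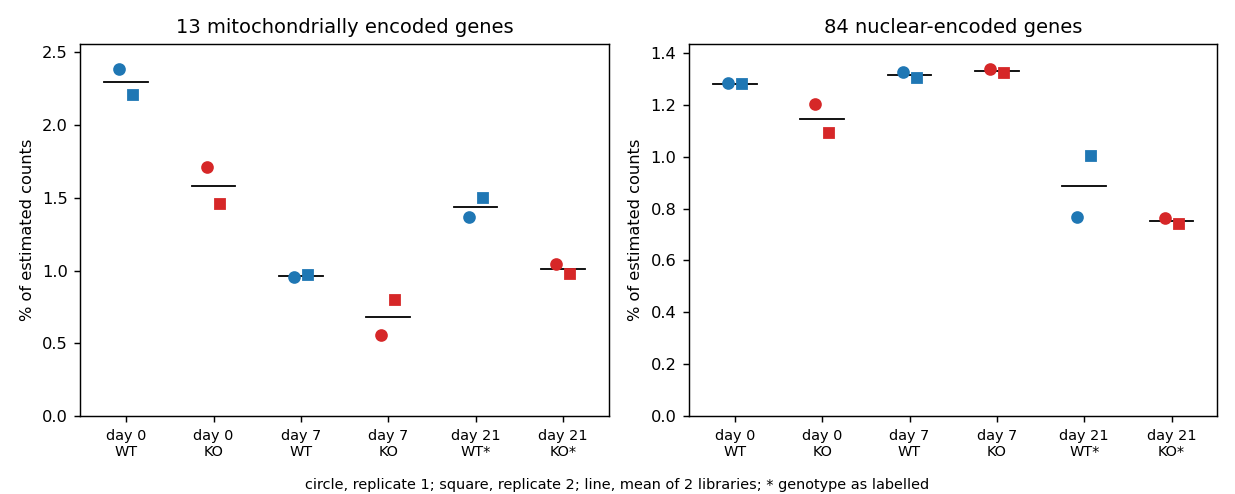
Share of all estimated counts (y axes, %) taken by the 13 mitochondrially encoded genes (left) and the 84 nuclear-encoded genes (right) in each of 12 libraries, by group (x axes); circles are replicate 1, squares replicate 2 and lines the mean of 2 libraries. The mitochondrial share is lowest in the 4 day 7 libraries (0.558% to 0.968%), whereas the nuclear share is lowest at day 21.

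All 12 tested mitochondrial genes fell from day 0 to day 7 in WT and all 12 fell in KO, where 47.0% and 46.9% of all 15890 genes tested were called in either direction and 21.2% and 22.2% were called lower (edgeR quasi-likelihood test, Benjamini-Hochberg adjusted p under 0.05). Their median log2 fold change was -1.36 in WT and -1.29 in KO, against 0.06 and 0.03 over all genes tested.

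The falls were unequal among the 12. mt-Nd2, a core subunit of complex I (ENSMUSG00000064345, chrM:3914-4951, GRCm38), had the largest: it was at 836 and 696 CPM in day 0 WT, 522 and 397 in day 0 KO, 169.6 and 168 in day 7 WT, and 105 and 133 in day 7 KO. No day 7 library reached any day 0 library. The log2 fold change was -2.18 (SE 0.174, adjusted p = 7.69e-06) in WT, a level 4.53 times lower, and -1.95 (SE 0.173, adjusted p = 1.13e-05) in KO. mt-Nd6 (ENSMUSG00000064368, chrM:13552-14070), the only mitochondrial mRNA encoded on the opposite strand, came next in WT with -2.03 (SE 0.169, adjusted p = 9.58e-06). It was at 249 and 198 CPM in day 0 WT and at 50.1 and 59.6 in day 7 WT, and in KO at 124 and 93.8 at day 0 and 34.9 and 38.4 at day 7. Its 3' end overlaps that of mt-Nd5 (chrM:11742-13565), and the labels do not say that strand was kept. The smallest falls in WT were those of mt-Co2 (-1.11, SE 0.172, adjusted p = 0.000487) and mt-Nd4l (-1.12, SE 0.264, adjusted p = 0.00575), which encode a catalytic subunit of complex IV and a small membrane subunit of complex I. mt-Nd4l had only 78 to 314 counts a library, and its fall in KO (-0.86, SE 0.271, adjusted p = 0.0232) lost the call in 3 of 25 alternative settings, with adjusted p up to 0.154.

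The mitochondrial subunits of complex IV with the most reads kept the days apart as well. mt-Co1 went from 5106 and 4914 CPM in day 0 WT to 1969.9 and 1989.7 at day 7, and in KO from 4309 and 3911 to 1211 and 1772. mt-Co3, which completes the core of complex IV, went from 4323 and 4118 to 1814 and 1774 in WT and from 3346 and 2958 to 1005 and 1448 in KO. In both genes the day 7 replicates of KO differed more than those of WT. mt-Cytb, the mitochondrial subunit of complex III, fell by 1.22 on the log2 scale in WT and by 1.26 in KO.

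**Figure D2:**
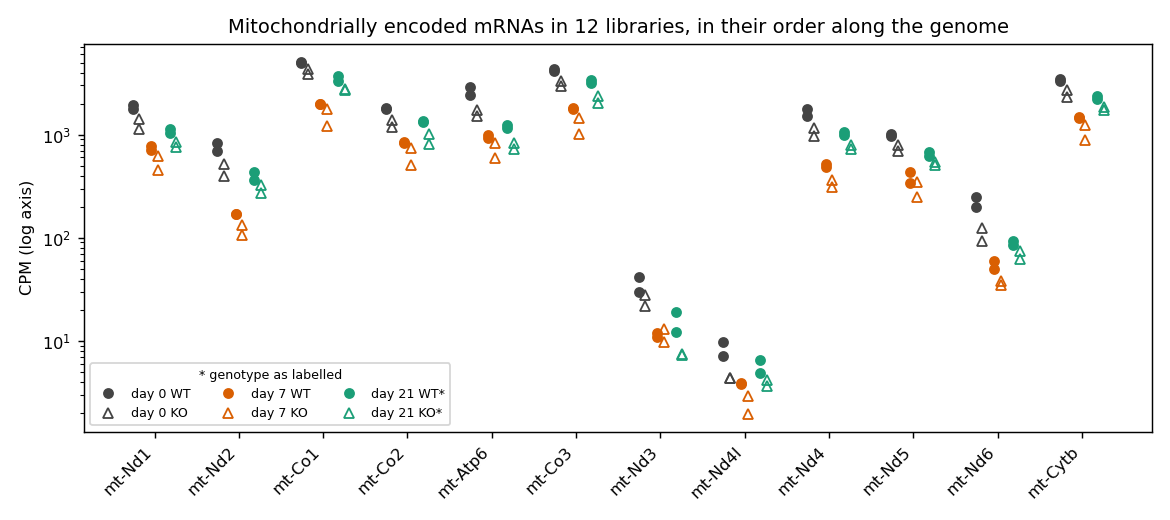
CPM (y axis, log scale) of the 12 tested mitochondrially encoded mRNAs (x axis, in genome order) in each of 12 libraries; filled circles are WT, open triangles KO, and colours the day. Within each genotype label every gene is highest at day 0 and lowest at day 7 with no overlap of days, except mt-Atp6 and mt-Nd3 in KO; mt-Nd2 drops furthest, from 836 and 696 to 169.6 and 168 CPM in WT.

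The nuclear members did not share this fall. In WT, 9 of 79 rose and 11 fell from day 0 to day 7 (25.3% called, below the 47.0% over all genes, of which 25.8% rose and 21.2% fell), and the median over the 78 with a usable fold change was -0.10. In KO, 16 rose and 2 fell (22.8% called, where 24.7% of all genes rose and 22.2% fell), with a median of 0.20. Ndufa4 was the nuclear member left out of medians and ranges, for reasons given with the isoforms. The summed TPM of every complex was somewhat higher at day 7, by a factor of 1.09 for complex I, 1.23 for II, 1.18 for III, 1.17 for IV and 1.25 for V.

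In complexes I to III called changes were few; Ndufa4l2 is given with the interaction. The complex I accessory subunits Ndufa10 and Ndufa13 moved apart in WT: Ndufa10 went from 121 and 117 CPM at day 0 to 159 and 161 at day 7, a log2 change of 0.43 (SE 0.112, adjusted p = 0.00997). Ndufa13 went from 191 and 192 CPM to 128 and 126, a change of -0.59 (SE 0.112, adjusted p = 0.00168). The replicates of either gene lay within a few CPM of each other and the days did not overlap. Of the 4 succinate dehydrogenase subunits, only the membrane anchor Sdhd passed the test in both genotypes, from 150.3 and 145 CPM to 239.8 and 233 in WT (0.68, SE 0.110, adjusted p = 0.00066) and from 145 and 155 to 229.9 and 231 in KO (0.62, SE 0.110, adjusted p = 0.001). Its partner anchor Sdhc fell in WT, from 241 and 229 CPM to 165 and 163 (-0.52, SE 0.154, adjusted p = 0.0185), a call lost in 6 of 25 settings with adjusted p up to 0.174, and stood at 221 and 180.2 against 195 and 181 in KO. The flavoprotein Sdha and the iron-sulfur subunit Sdhb passed the test in neither genotype, with Sdha between 446 and 536 CPM over all day 0 and day 7 libraries. Uqcrfs1, the Rieske iron-sulfur protein of complex III, rose in both genotypes, by 0.50 in WT (SE 0.124, adjusted p = 0.00744) and by 0.39 in KO (SE 0.123, adjusted p = 0.0252). The KO call was lost in 4 of 25 settings, and under the GC and length offset the change was 0.12 (adjusted p = 0.425).

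Complexes IV and V held most of the KO rises, 5 of 13 and 7 of 17 tested members, where 24.7% of all genes rose. Cox5a, a ubiquitous matrix-side subunit of complex IV, was at 97.5 and 96.0 CPM in day 0 WT, 125 and 123 in day 7 WT, 78.2 and 72.4 in day 0 KO, and 129.6 and 133 in day 7 KO. The day 0 levels were lower in KO, a difference lost in 7 of 25 settings and at 0.052 under the GC and length offset. The change was 0.36 (SE 0.10, adjusted p = 0.0136) in WT, a call lost in 4 of 25 settings, and 0.80 (SE 0.101, adjusted p = 0.000108) in KO. Atp5o, the subunit that links the catalytic head of the ATP synthase to its stalk, rose by 0.47 (SE 0.112, adjusted p = 0.00652) in WT and 0.65 (SE 0.113, adjusted p = 0.000861) in KO. Atp5g1 and Atp5g3, genes for the same rotor ring subunit, rose in KO by 0.71 (SE 0.119, adjusted p = 0.000733) and 0.42 (SE 0.104, adjusted p = 0.00719). An offset for GC content and relative effective length (counts over TPM, median over libraries) was an alternative chosen after seeing the data. With it in the fit 8 nuclear members rose and 22 fell in KO, so the excess of rises over falls did not hold under that scaling. There Atp5g1 was at 0.34 (adjusted p = 0.0127) and Atp5g3 at 0.038 (adjusted p = 0.687), while all 12 mitochondrial genes still fell in both genotypes. Leaving out day 0 KO replicate 2 also reduced the KO calls, from 30 members to 19.

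**Figure D3:**
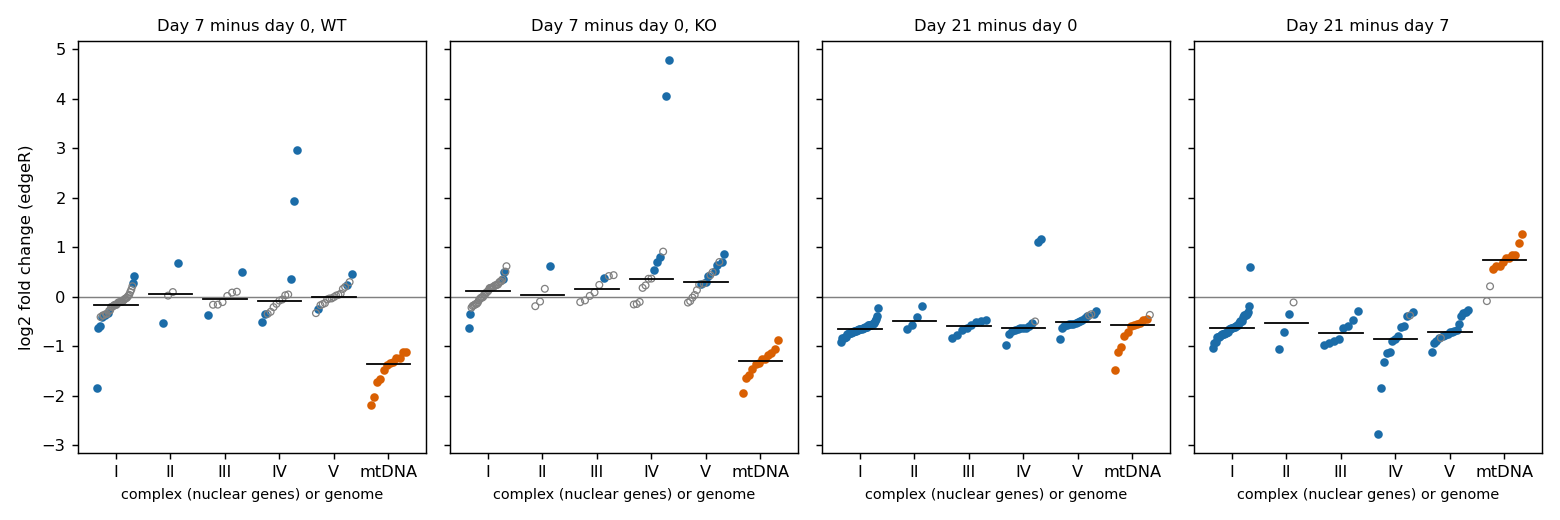
edgeR log2 fold change (y axis) of each tested member but Ndufa4, by complex for nuclear genes and as one group for mitochondrial DNA (x axis), in 4 comparisons of days; filled points had an adjusted p under 0.05, open points did not, and bars are medians. Mitochondrial genes lie at or below -0.86 in both day 7 comparisons and mostly above 0 from day 7 to day 21, where the nuclear members other than Ndufa4l2 lie below 0.

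Between day 7 and day 21 the genomes went in opposite directions. Averaged over the genotypes, 10 of 12 mitochondrial genes rose and none fell, while 74 of 79 nuclear members fell and 1 rose (56.8% of all genes called, 28.4% in each direction). The medians were 0.75 for mitochondrial and -0.69 for nuclear members. mt-Nd2 regained most, at 363 and 429 CPM in the libraries labelled WT and 324 and 270.0 in those labelled KO (1.27, SE 0.120, adjusted p = 1.07e-05). mt-Nd4, a core proton-pumping subunit of complex I, rose by 1.10 (SE 0.0881, adjusted p = 4e-06). The 2 that did not pass were mt-Nd3 (-0.08, SE 0.172, adjusted p = 0.704) and mt-Atp6 (0.21, SE 0.111, adjusted p = 0.127). With the counts of near copies added they were at 0.36 (adjusted p = 0.0906) and 0.22 (adjusted p = 0.141). Among the nuclear members Sdhd, Atp5o and Cox5a, which had risen at day 7, dropped by 1.06, 1.11 and 1.11. Ndufa4l2 alone rose. Under the GC and length offset 47 nuclear members fell and 4 rose, which were Ndufa4l2, Ndufb10 (0.23), Uqcrh (0.24) and Ndufa1 (0.20), and all 12 mitochondrial genes rose. Of the nuclear falls named above, that of Sdhd was then -0.68 and that of Cox5a -0.64.

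Against day 0, both genomes were lower at day 21. Of 79 nuclear members 73 were lower and 2 higher, and 11 of 12 mitochondrial genes were lower (45.9% of all genes called, 20.8% lower), with medians of -0.61 and -0.58. Every tested member of complexes I, II and III with a usable fold change fell. Among them the smallest change was that of Sdha, at -0.19 (SE 0.0577, adjusted p = 0.0201), a call lost in 7 of 25 settings with adjusted p up to 0.506. The call of Ndufs1 was lost in 5 of 25, with adjusted p up to 0.318. Ndufb7 had the largest in complex I, at -0.91 (SE 0.109, adjusted p = 0.000107). Atp5b went from 2264 to 2631 CPM over the day 0 libraries to 1769.7 to 2012 at day 21 (-0.34, SE 0.0604, adjusted p = 0.00111). The 2 that were higher were the muscle isoforms Cox6a2 and Cox8b. Summed nuclear TPM was 19369 to 19899 in 3 of the day 21 libraries and 26219 in replicate 2 labelled WT, against 25696 to 31048 at day 0. Marker sums at day 21 also lay apart from those at day 0: 758 to 1143 against 393 to 609 TPM for muscle stem cell, 8984 to 12610.1 against 5577 to 7980 for fibro-adipogenic, 2708 to 4032 against 4997 to 7653 for smooth muscle and pericyte, and 708 to 1016 against 2031 to 3513 for macrophage markers. Their part in the difference was not tested. The ratio of mitochondrial to nuclear TPM at day 21, from 1.06 to 1.44, overlapped that at day 0. Without the 2 libraries that Sesn2 contradicted the medians were -0.50 and -0.59, and under the GC and length offset 58 nuclear and 9 mitochondrial members were still lower. Sizes changed with that offset: Ndufb7 was at -0.57 and Atp5b at -0.14, whereas Sdha was at -0.35.

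Nuclear members were called between the genotypes at day 0 at about the rate of all genes, but mostly as lower in KO. In KO 20 nuclear members were lower and 2 higher, 27.8% of 79, where 27.4% of all genes were called (14.8% higher, 12.6% lower). Of the mitochondrial genes 7 of 12 were lower and the other 5 had negative changes. The medians were -0.27 for 78 nuclear and -0.53 for mitochondrial members. mt-Nd6 was at 249 and 198 CPM in WT and 124 and 93.8 in KO (-1.04, SE 0.164, adjusted p = 0.00197), the largest of these mitochondrial differences. Complex IV held 8 of the 20 nuclear genes lower in KO, out of 13 tested, and complex II held none. Markers moved in the same KO libraries: 6 of 8 muscle stem cell markers were lower, with a summed TPM of 393 to 425 against 600.4 to 609 in WT, as were all 4 keratinocyte and all 5 red blood cell markers. Of 5 smooth muscle and pericyte markers 4 were higher, with a sum of 7642 to 7653 TPM against 4997 to 5008. The macrophage sum was 3405 to 3513 against 2031 to 2046, with none of 5 called, and the fibro-adipogenic sum 5577 to 5595 against 7847 to 7980, with 2 of 7 lower. Their part in the difference was not tested. Among nuclear members beyond the muscle isoforms, Ndufb4, an accessory subunit of the complex I membrane arm, differed most: 71.6 and 66.4 CPM in WT against 42.0 and 31.0 in KO (-0.92, SE 0.162, adjusted p = 0.00317). The 2 higher in KO were Ndufs1, the largest core subunit of complex I, with 179 and 177 CPM in WT and 229.7 and 247 in KO (0.42, SE 0.0912, adjusted p = 0.00808), and Uqcrc1, a core protein of complex III, with 166 and 169.7 in WT and 232 and 258 in KO (0.54, SE 0.163, adjusted p = 0.0325). These calls were lost in 3 and 6 of 25 settings, with adjusted p up to 0.0674 and 0.169.

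The nuclear part of this day 0 difference moved with relative effective length, the median over libraries of counts over TPM, not the annotated length. Over 79 nuclear members, which share the same 4 libraries, Spearman's rho between log2 fold change and length was 0.53. The 39 shorter members had a median of -0.36 and the 40 longer ones -0.15, and 523 other genes as short as the shorter members had a median of -0.44, with 26.4% called lower. Under the GC and length offset the nuclear median turned to 0.10, with 11 higher and 4 lower, while the mitochondrial median stayed negative at -0.22 with 4 lower. The count also rested on single libraries: it fell from 29 members to 4 without day 0 KO replicate 2, to 5 without day 0 WT replicate 1 and to 8 without day 0 WT replicate 2, and rose to 44 without the day 21 replicate 2 labelled WT.

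**Figure D4:**
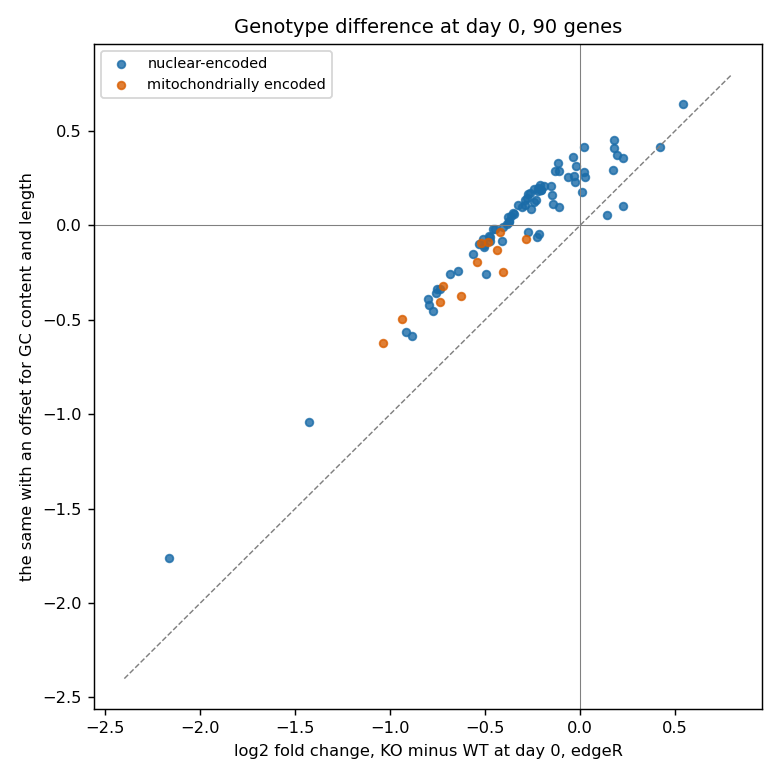
Log2 fold change at day 0, KO minus WT, of 78 nuclear and 12 mitochondrial members in the edgeR fit (x axis) and with an added offset for GC content and relative effective length (y axis). Each point is a gene and the dashed line marks equality. Nearly the whole cloud lies above the line, and the nuclear median moves from below 0 to 0.10.

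At day 7 no member passed between the genotypes with edgeR, where 1.76% of all genes did (1.08% higher, 0.680% lower), although 14 members had an unadjusted p under 0.05 and DESeq2 called 4. All 11 mitochondrial genes other than mt-Nd3 had negative changes, with a median over the 12 of -0.47, and mt-Nd4 came nearest (-0.55, SE 0.124, adjusted p = 0.0555). The mitochondrial share of counts in KO was 0.690 and 0.705 of that in WT at days 0 and 7, with both KO libraries below both WT libraries. At day 21 it was 1.05% and 0.978% in the libraries labelled KO and 1.37% or above in those labelled WT. With Sesn2 and Sesn1 against the label of 1 library on each side, no ratio of genotypes is given there. By label at day 21 none of the 91 passed with edgeR (0.0126% of all genes, 0.00629% higher and 0.00629% lower), 28 had an unadjusted p under 0.05, and DESeq2 called 5, all mitochondrial and lower. Nuclear changes there were negative in 74 of 79, with a median of -0.24. They rest on replicate 2 labelled WT, at 26219 summed nuclear TPM. Replicate 1 labelled WT was at 19369, and the libraries labelled KO at 19899 and 19671. Without the 2 contradicted libraries the comparison sets 1 library against 1, taken to vary like the other groups, and its calls are not read here. The WT one is the library with the highest nuclear TPM of day 21. Leaving out the replicate 1 labelled WT alone also leaves that single WT library, so those calls are not read here either.

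The change from day 0 to day 7 differed between the genotypes for 4 members, all more positive in KO, where 13.5% of all genes had a called interaction, 6.08% more positive and 7.39% more negative: Ndufa4l2, Cox6a2, Cox8b and Ndufb4. No mitochondrial gene had one, and their interaction estimates ran from -0.13 for mt-Co3 to 0.53 for mt-Nd3. In each of the 4 the day 7 levels of the genotypes were closer on the log2 scale than the day 0 levels, at which KO was lower. Under the GC and length offset Ndufa4l2 kept its call (0.77, adjusted p = 0.0315), whereas Cox6a2 was at 1.40 (adjusted p = 0.0716), Cox8b at 1.65 (adjusted p = 0.0752) and Ndufb4 at 0.49 (adjusted p = 0.133). Over all alternatives Ndufa4l2 kept its call in 25 of 25, whereas Cox6a2 lost it in 8 of 25, Cox8b in 7 of 24 and Ndufb4 in 12 of 25, with adjusted p up to 0.10, 0.12 and 0.214. The count of 4 became 1 without day 0 KO replicate 2 and 20 when the day 0 and day 7 libraries were fitted alone.

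Ndufa4l2 (ENSMUSG00000040280, chr10:127514967-127517154), the hypoxia-inducible paralog of Ndufa4, had the clearest pattern of any nuclear member outside the muscle isoforms. It was at 130.3 and 132 CPM in day 0 WT and 88.3 and 64.7 in day 0 KO, then at 36.0 and 37.1 in day 7 WT and 50.3 and 48.6 in day 7 KO. At day 21 the libraries labelled WT held 65.1 and 63.7 and those labelled KO 62.2 and 66.1. Days 0 and 7 did not overlap in either genotype, the order of the genotypes was opposite on these days, and at day 21 they were mixed. It fell by 1.84 (SE 0.132, adjusted p = 4.27e-06) in WT and by 0.63 (SE 0.129, adjusted p = 0.00241) in KO, and the difference was 1.21 (SE 0.182, adjusted p = 0.00444). From day 7 to day 21 it rose by 0.60 (SE 0.0911, adjusted p = 0.000269). Cox4i2, the hypoxia-inducible isoform of complex IV subunit 4 and outside the symbol pattern, likewise fell at day 7, by 1.46 in WT and 0.92 in KO, and was higher in day 7 KO than WT (0.80, adjusted p = 0.0413). The smooth muscle and pericyte marker sum was 4997 to 7653 TPM at day 0 and 2141 to 3141 at day 7. Within day 7 it was 3139 to 3141 in KO against 2141 to 2145 in WT. At day 0 it was higher in KO, at 7642 to 7653 against 4997 to 5008, whereas Ndufa4l2 was lower. The part of these cells in either gene was not tested. Ndufa4 itself had 41.0 and 183 estimated counts in day 0 KO, 65.9 in day 7 KO replicate 1, and under 1 in the other 9 libraries. Such jumps within a group leave its assignment uncertain, and no fold is given.

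Muscle isoforms of complex IV made the largest rises of the whole set. Cox6a2 (ENSMUSG00000030785, chr7:128205435-128206387), the heart and skeletal muscle form of subunit 6a, was at 2.34 and 2.74 CPM in day 0 WT, 1.03 and 0.847 in day 0 KO, 15.9 and 23.8 in day 7 WT and 29.5 and 22.7 in day 7 KO. At day 21 it was at 2.16 to 4.56, above day 0 by the test (1.10, SE 0.221, adjusted p = 0.00242). The days 0 and 7 were far apart in both genotypes, whereas the day 7 genotypes overlapped. It rose by 2.96 on the log2 scale in WT (SE 0.297, adjusted p = 3.13e-05), 7.77 times, and by 4.78 in KO (SE 0.335, adjusted p = 2.61e-06). Cox8b (ENSMUSG00000025488, chr7:140898945-140900446), the corresponding form of subunit 8, was at 1.31 and 1.21 CPM in day 0 WT, 0.365 and 0.184 in day 0 KO (12 and 5 counts), 4.50 and 5.25 in day 7 WT, 5.66 and 3.77 in day 7 KO, and 1.21 to 1.59 at day 21. It rose by 1.95 in WT (SE 0.358, adjusted p = 0.00138) and by 4.07 in KO (SE 0.414, adjusted p = 2.72e-05). Over 24 alternative settings the rise ran from 0.95 to 2.17 in WT and from 1.53 to 4.65 in KO.

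Even at day 7 these isoforms were the minor form. On the TPM scale Cox6a2 made up 0.291% to 0.682% of the 6a pair at day 0, 5.19% to 9.61% at day 7 and 0.969% to 2.22% at day 21, the rest being the ubiquitous Cox6a1. Cox8b made up 0.306% to 1.79%, 5.87% to 9.28% and 2.66% to 3.25% of the subunit 8 pair. Cox6a1 itself was at 285 and 294 CPM in day 0 WT and 212 and 195 in day 7 WT (-0.51, SE 0.130, adjusted p = 0.00884), and in KO at 258 and 210.3, then 203 and 218. Cox8a, the ubiquitous subunit 8, fell in WT by 0.35 (SE 0.108, adjusted p = 0.0215), a call lost in 8 of 25 settings, with adjusted p up to 0.527. The Cox6a1 call was lost in 5 of 25, with adjusted p up to 0.208. The third muscle isoform, Cox7a1, did not pass the test at day 7 in either genotype (-0.21, adjusted p = 0.682 in WT and 0.91, adjusted p = 0.0703 in KO). It was at 2.91 and 2.85 CPM in day 0 WT, 2.66 and 2.33 in day 7 WT, 2.25 and 1.18 in day 0 KO and 3.53 and 2.96 in day 7 KO. Its share of the 7a pair was 4.08% to 6.03% at day 0, 6.37% to 8.53% at day 7 and 3.83% to 7.07% at day 21, higher in each day 7 library than in each day 0 library. At day 21 it was at 0.916 to 1.45 CPM, lower than at day 0 (-0.97, SE 0.274, adjusted p = 0.0151), a call lost in 3 of 25 settings, such as the GC and length offset (-0.59, adjusted p = 0.109). Cox6b2, the testis isoform of subunit 6b, stayed between 1.54 and 3.07 CPM. Rises of Cox6a2 and Cox8b went with the myofibre markers: Acta1, skeletal muscle actin, was at 28.6 to 48.5 TPM at day 0, 998 to 2021 at day 7 and 94.6 to 232 at day 21. Of the 12 markers, 11 rose at day 7 in WT and 10 in KO, where 25.8% and 24.7% of all genes rose. At day 0, 6 of the 12 were lower in KO than in WT, as Cox6a2 and Cox8b were, where 12.6% of all genes were lower. The part of myofibre RNA in the isoform changes was not tested.

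**Figure D5:**
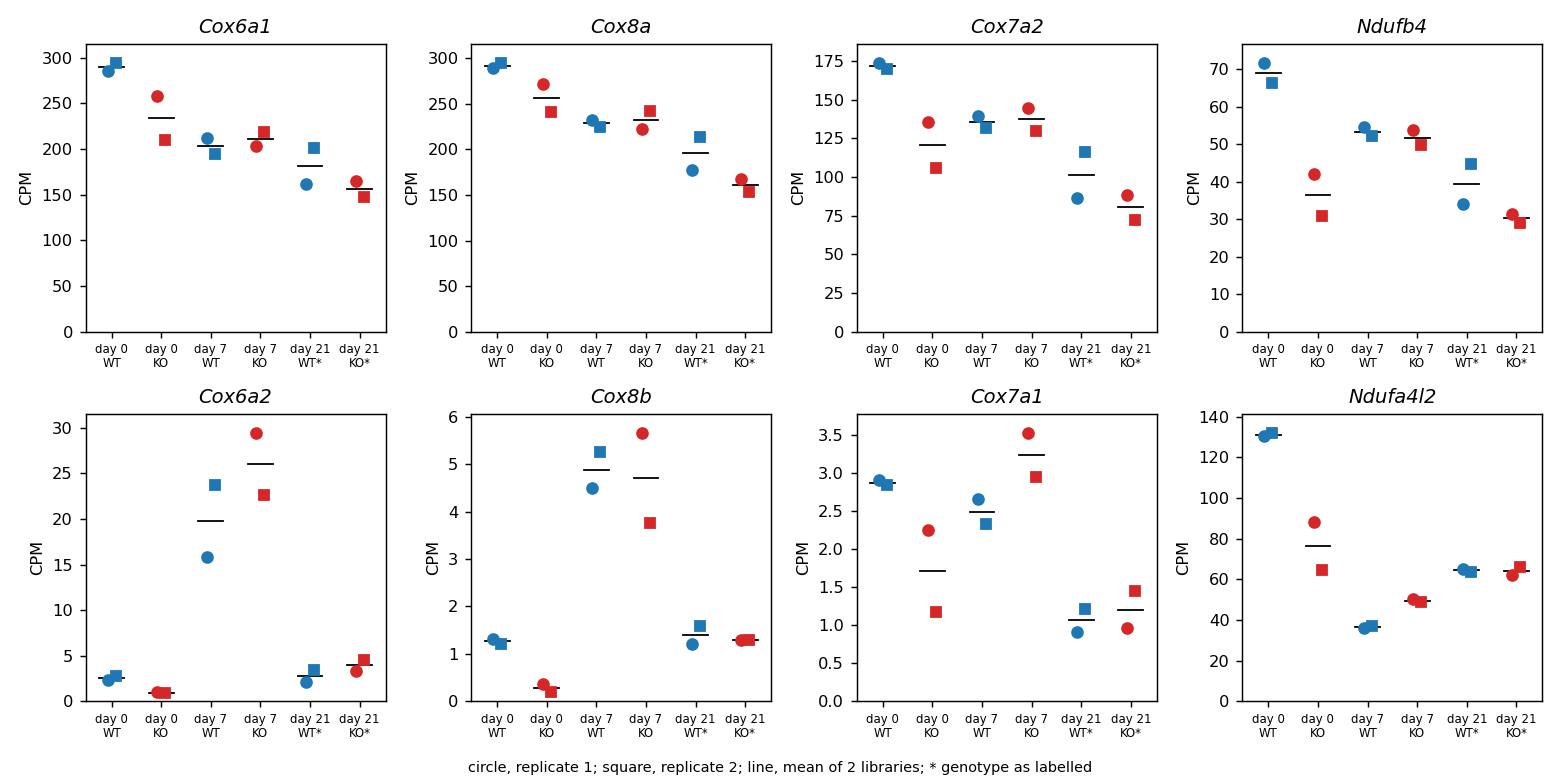
CPM (y axes, each from 0) of Cox6a1, Cox8a, Cox7a2 and Ndufb4 (top) and Cox6a2, Cox8b, Cox7a1 and Ndufa4l2 (bottom) in 12 libraries by group (x axes); circles are replicate 1, squares replicate 2, lines the mean of 2 libraries. Cox6a2 and Cox8b peak at day 7 in both genotypes, Cox7a1 is highest at day 7 in KO only, and Ndufa4l2 is lowest at day 7.

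The start regions of 3 isoforms are printed because the subunit 6a and 8 pairs moved apart at day 7. No window was used here for Cox6a2. The windows of the subunit 7a pair, Cox7a1 and Cox7a2, held none of the motifs searched and are not printed. They are RefSeq windows (GRCm38.p6) from 250 bases before to 50 after the annotated start, all on the minus strand: chr5:115348909-115349208 for Cox6a1, chr19:7217567-7217866 for Cox8a and chr7:140900397-140900696 for Cox8b. Capitals mark matches, on either strand, to the NRF1 core, which is GCGC, then any 2 bases, then GCGC, and in its strict form has AT between (the strict form is a case of the looser one), to CCGGAAG (ETS factors) and to CAGCTG (an E-box of the kind bound by myogenic factors).
Cox6a1: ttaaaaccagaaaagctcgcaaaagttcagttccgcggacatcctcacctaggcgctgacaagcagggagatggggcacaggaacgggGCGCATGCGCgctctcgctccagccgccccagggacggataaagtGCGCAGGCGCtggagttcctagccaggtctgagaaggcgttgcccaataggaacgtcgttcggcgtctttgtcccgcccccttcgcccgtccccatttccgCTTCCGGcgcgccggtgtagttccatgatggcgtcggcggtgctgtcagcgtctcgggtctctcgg
Cox8a: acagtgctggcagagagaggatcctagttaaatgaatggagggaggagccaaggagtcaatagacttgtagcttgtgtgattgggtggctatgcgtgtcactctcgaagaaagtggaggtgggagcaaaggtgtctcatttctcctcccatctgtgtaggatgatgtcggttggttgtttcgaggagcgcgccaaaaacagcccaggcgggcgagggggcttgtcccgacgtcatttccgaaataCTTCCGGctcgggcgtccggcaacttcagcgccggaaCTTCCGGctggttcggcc
Cox8b: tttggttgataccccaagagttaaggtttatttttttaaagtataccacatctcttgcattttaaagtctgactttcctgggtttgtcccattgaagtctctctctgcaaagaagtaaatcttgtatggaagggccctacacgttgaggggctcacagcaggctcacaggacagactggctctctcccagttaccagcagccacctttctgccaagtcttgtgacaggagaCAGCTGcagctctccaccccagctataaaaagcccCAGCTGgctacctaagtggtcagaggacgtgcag
Cox6a1 held the strict NRF1 core with its first base at -162 from the start, a further match to the looser core at -117 and the ETS letters at -16. Cox8a held the ETS letters at -5 and 32. Cox8b held neither and had the E-box letters at -19 and 16. Windows were matched for 68 of the 81 nuclear protein-coding members. Among these 26.5% held the looser NRF1 core, 7.35% the strict one, 23.5% CCGGAAG and 16.2% AAGATGGC (YY1), against 7.00%, 1.07%, 9.93% and 3.19% of all 27025 genes with a window. A gene counted if any of its windows matched. CAGCTG was in 8.82% of members and 18.3% of all, and the MEF2 site in 0 of 68 and 3.70%. A match is a run of letters, and no binding was measured.

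Near copies elsewhere in the genome could take reads from some members. For mt-Nd3 the unprocessed pseudogene Gm28438, 99.71% identical, held 40.6% of the reads of the pair, for mt-Co1 the partial copy Gm29216 held 24.2%, and for mt-Atp6 Gm10925 held 17.6%. Among nuclear members the share was 47.0% for Gm10175 beside Atp5g2 and 20.1% for Gm3244 beside Ndufb4. With the copies added, all 5 mitochondrial genes that have one still fell at day 7 in both genotypes, and mt-Nd3 gained calls between genotypes, at -1.42 (adjusted p = 0.00255) on day 0 and -1.18 (adjusted p = 0.0403) on day 7. These calls rest on the copy, which was listed at 0 in all 4 KO libraries of those days and had 576 to 1178 estimated counts in the WT ones. mt-Nd3 alone was not called between genotypes on either day. The Ndufb4 interaction was 0.74 (adjusted p = 0.0472) with its copy added.

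Genes that build the complexes followed the nuclear members more than the mitochondrial ones. From day 7 to day 21, 12 of 14 tested complex I assembly factors, 6 of 8 for complexes II and III, 17 of 21 for complex IV and 3 of 4 for complex V fell, where 28.4% of all genes did. At day 7, where 47.0% of all genes were called in WT and 46.9% in KO, 3 of 14 rose and 3 fell for complex I in WT and 2 rose and 1 fell in KO. For complexes II and III none of 8 was called in WT and 3 rose in KO. For complex IV 4 of 21 rose and 3 fell in WT, and 7 rose and 1 fell in KO. For complex V 1 of 4 rose and 1 fell in either genotype. Of 17 genes for mitochondrial DNA transcription, upkeep and RNA binding, 5 rose and 2 fell at day 7 in WT and 7 rose and 2 fell in KO, 41.2% and 52.9% called. Among them were Polrmt, the mitochondrial RNA polymerase, which rose by 0.97 in WT (adjusted p = 0.000238), and Lrpprc, which stabilises mitochondrial mRNAs and rose by 0.88 in WT (adjusted p = 0.000223) and by 0.41 in KO (adjusted p = 0.0173). Polrmt was higher in KO than in WT at day 0 (0.73, adjusted p = 0.00384). In KO it changed by 0.20 (adjusted p = 0.238), and the difference between the genotypes was -0.76 (adjusted p = 0.0267). Tfam, which packages mitochondrial DNA, rose in KO by 0.58 (adjusted p = 0.00489). The list's falls in KO were those of Mgme1, a nuclease of mitochondrial DNA upkeep (-0.67, adjusted p = 0.000836), and Polg, the mitochondrial DNA polymerase (-0.59, adjusted p = 0.0014), which also had a called interaction (-0.80, adjusted p = 0.0119). Of 8 regulators of respiratory chain genes, 4 rose and 2 fell at day 7 in WT, and 1 rose and 2 fell in KO. Gabpa, an ETS factor subunit, rose in WT by 0.70 (adjusted p = 0.000716) and Ppargc1b by 0.92 (adjusted p = 0.0216). The Gabpa change differed between the genotypes (interaction -0.67, adjusted p = 0.0258). Ppargc1a, a coactivator of mitochondrial biogenesis, fell in both genotypes, from 7.58 and 7.76 TPM to 4.67 and 3.39 in WT and from 13.6 and 13.8 to 5.51 and 5.60 in KO. By edgeR on counts, not TPM, it fell by 1.53 in WT (adjusted p = 6.74e-05) and by 1.46 in KO (adjusted p = 7.28e-05). On the same scale it was higher in KO than in WT at day 0 (0.53, adjusted p = 0.0413). The TPM values give smaller falls and a larger day 0 difference.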

How the data were processed

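Bulk RNA was read as 76-base single-end reads from SMART-Seq v4 and Nextera XT libraries, per the labels' protocols. The authors deposited estimated counts per gene, made with kallisto 0.46.1 per the submitters' processing notes, which name mm10 and GRCm38.p6. The authors' deposited TPM values also come from that quantification, and the listed genes do not hold all of it. Regularised log2 values deposited by the authors were corrected for a batch that the sources used here do not name.

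Estimated counts were rounded and fitted with edgeR 4.0.16 in R 4.3.3 (filterByExpr, TMM, robust quasi-likelihood, 1 mean per group over 12 libraries, 6 residual degrees of freedom), with Benjamini-Hochberg adjustment over 15890 genes. DESeq2 1.42.0, limma 3.58.1, other filters and scalings, a replicate block and leaving out each library were alternatives, and the tests were tested on simulated data. Per-library CPM were scaled by the TMM factors. Positions came from GENCODE M21 (GRCm38), near copies from BLAST 2.17.0 (at least 95% identity over 50% of the shorter transcript), and promoter windows from RefSeq (GRCm38.p6). No column of per-sample values was left unused (0 such columns).

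Named genes were isoform pairs, Sdh subunits, mitochondrial genes, and up to 2 called members each way per complex and comparison with the smallest adjusted p, with at most 3 called genes per other list. Genes named outside this rule, such as those at the end of a range, were chosen after their values were seen. Members and lists were chosen with earlier results of these data known. Tests cover the spread between libraries, which may be technical.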

Additional observations from a re-analysis of the deposited data

Results flagged for a closer look

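The day 7 change differed between the genotypes, by the interaction term of the edgeR fit, in 4 members. The difference, KO change minus WT change on the log2 scale, was 1.21 (SE 0.182, adjusted p = 0.00444) for Ndufa4l2 and 1.82 (SE 0.425, adjusted p = 0.0222) for Cox6a2. It was 2.12 (SE 0.530, adjusted p = 0.0287) for Cox8b and 0.87 (SE 0.227, adjusted p = 0.0326) for Ndufb4. In the same interaction 6 of 12 myofibre markers were called, all more positive in KO, where 13.5% of all genes were called and 6.08% were more positive. The part of myofibre RNA in these values was not tested. With 2 libraries a group no sample could be tested as an outlier.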

How the results depend on the processing

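Members called between the genotypes on day 0, 29 in the edgeR fit, numbered 14 with limma on log2(TPM + 1), 14 on log2(TPM + 0.1), 12 without a TPM filter, 56 with day 0 and day 7 libraries alone, 19 with the GC and length offset and 19 with an absolute log2 change of at least 0.5. For day 7 genotype, 0 became 4 with DESeq2, 2 with day 0 and day 7 alone, and 1 each without a count filter, with at least 10 counts in every library, on the batch-corrected values, with the GC and length offset and with near copies added. For day 21 genotype, 0 became 5 with DESeq2 and 13 without the 2 libraries that Sesn2 contradicts, which leaves 1 library a side. The 32 calls of day 7 in WT became 21 with the 0.5 limit. The 4 interactions became 7 with DESeq2, 2 without a TPM filter, 20 with day 0 and day 7 alone, and 2, of which 1 lower, with the offset. Leaving out 1 library gave 4 (without day 0 KO replicate 2) to 44 (without day 21 WT replicate 2) for day 0 genotype, 0 to 4 for day 7 genotype, and 0 to 17 for day 21 genotype. It gave 21 (without day 7 WT replicate 2) to 39 for day 7 in WT, 19 (without day 0 KO replicate 2) to 42 for day 7 in KO, 1 (without day 0 KO replicate 2) to 8 (without day 21 WT replicate 2) for the interaction, 83 to 87 for day 21 against day 0, and 82 to 85 for day 21 against day 7. Day 7 over day 0 nuclear TPM ranged from 1.13 to 1.20. The causes were not tested.

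Among genes named by the rule, direction reversed for Cox5a in day 0 genotype (0.052), Atp5c1 in KO at day 7 (-0.047), and Cox6a1 (0.022), Ndufb10 (0.23) and Uqcrh (0.24) from day 7 to day 21, all with the offset. Atp5d in WT at day 7 reversed to 0.018, 0.018 and 0.018 in the TPM fits and 0.0084 with the offset. Over these rule-named genes and their settings, not all members, 3893 results kept direction and call, 317 lost the call and 9 reversed. Outside the rule the offset also turned the sign of called changes in Atp5j at day 0 and, from day 7 to day 21, in Ndufa1, which was then called at 0.20, Ndufa5, Ndufa7, Ndufb2, Ndufb11 and Atp5b. On log2(TPM + 0.1) the median of all genes moved by 0.28 in WT at day 7, where nuclear members had a median of 0.15 and mitochondrial ones of -1.13. Numbers did not pair the samples: over 15 pairs of groups, correlations of same-numbered deviations ran from -0.143 to 0.0700. With the replicate block the counts were 23, 0, 0, 30, 30, 4, 86 and 84, against 29, 0, 0, 32, 30, 4, 86 and 85. Leaving mitochondrial ribosomal RNA genes out of the share was not run, since no such gene was in the table used.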

Other observations

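Gm28438, the near copy of mt-Nd3, had 958 and 1178 estimated counts in day 0 WT and 582 and 576 in day 7 WT. It was listed at 0 in both day 0 KO and both day 7 KO libraries. At day 21 it had 585 and 600.4 in the libraries labelled WT and 294 and 122 in those labelled KO, so that none of the 4 was at 0. mt-Nd3 itself was at 41.5 and 29.9 CPM in day 0 WT and 27.7 and 21.8 in day 0 KO. How the reads of this pair were divided between the genes was not tested.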
